A study of Mus musculus with 6 samples.

Results

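Zeb1, Zeb2, Snai1, Snai2, Snai3 and Twist1 are transcription factors of the epithelial-mesenchymal transition (EMT), and Esrp1 and Esrp2 are the epithelial splicing regulatory proteins. These 8 genes were chosen by symbol from a table of 53599 gene symbols, all 8 had a count in at least 1 library, and 4 (Zeb1, Snai1, Snai2 and Esrp2) passed the expression filter and were tested. In hepatocytes given Sox4, Zeb1 rose 1.67-fold and Snai1 rose 4.57-fold, whereas Snai2 fell to 8.82% and Esrp2 to 62.3% of the control level. The Snai1 result rested on few control counts and was lost when some single libraries were left out. The Esrp2 result was lost when only library size was used for scaling. Zeb2 and Snai3 had few counts, and their levels were uneven among the Sox4 libraries, and Twist1 and Esrp1 were at or near the limit of detection in both groups.

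EMT factors of the Zeb, Snai and Twist families are known as repressors of E-cadherin and other junction genes in epithelial cells, and they are used in development, wound repair and carcinoma. Zeb and Snai proteins bind the E-box CAGGTG through zinc fingers, and Twist1 binds E-boxes through a basic helix-loop-helix domain. Esrp1 and Esrp2 are RNA-binding proteins that set epithelial splice forms of transcripts such as Fgfr2, Cd44, Ctnnd1 and Enah, and Esrp2 is the member known for a role in the adult hepatocyte.

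RNA was taken from hepatocytes of mice 4 days after injection of a serotype 8 adeno-associated virus (AAV8), a viral vector. The Sox4 group received AAV8-TBG-HA-Sox4-P2A-Cre, which carries HA-tagged mouse Sox4 and Cre recombinase, and the control group received the empty vector (EV) AAV8-TBG-Cre. Both vectors used TBG, a promoter active in hepatocytes, so that Cre was delivered to both groups. Per the study's methods the mice carried Rosa-LSL-Cas9-EGFP on a C57BL/6J background and were injected at 4 to 8 weeks of age, while the labels give the genotype of EV samples as WT and of Sox4 samples as Sox4. The cells were released with liberase, and Percoll density separation was used to enrich hepatocytes, which need not remove every other liver cell. Each group had 3 libraries. The study describes its RNA-seq replicates as animals, while the labels name no animal.

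The libraries held 15090629 to 16964860 counts. Sox4 itself had 2, 0 and 3 counts in the EV libraries and 21697, 15097 and 11816 in the Sox4 libraries. Levels are given as CPM, counts scaled to a library of 1e06, with library sizes corrected by TMM (the trimmed mean of M-values), with mean ± SD (n = 3), and adjusted p-values come from the edgeR quasi-likelihood test with Benjamini-Hochberg adjustment. Of 12691 tested genes, 55.1% passed the threshold of 0.05, with 29.0% higher and 26.0% lower in Sox4, and the groups did not overlap for 63.0%. Of the 4 tested members 2 were higher and 2 lower past the threshold, but Snai1 entered the test only through its Sox4 counts and Snai2 only through its EV counts, so this count is no support for a change of the members as a group. The TMM factor was 1.38-fold larger for Sox4 than for EV libraries, beside a 1.07-fold difference in mean total count, and the median log2 fold change over all tested genes was 0.04, or 0.51 when only library size was used.

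The region before the Snai1 start site and those of a pair of junction genes are shown because they hold the E-box letters that Zeb and Snai proteins read, and the junction genes Epcam and F11r were picked for display after their values were seen. RefSeq promoter windows on GRCm38.p6 were matched for 3 of the 8 members (Zeb2, Snai1 and Twist1). The E-box was searched as CAGGTG and its reverse complement CACCTG in windows of 300 bases and was found in 20.2% of 32851 windows. The 250 bases before the start site follow, 5′ to 3′ on the gene's strand, with the E-box in capitals.
Snai1 (chr2:167537945-167538194, plus strand): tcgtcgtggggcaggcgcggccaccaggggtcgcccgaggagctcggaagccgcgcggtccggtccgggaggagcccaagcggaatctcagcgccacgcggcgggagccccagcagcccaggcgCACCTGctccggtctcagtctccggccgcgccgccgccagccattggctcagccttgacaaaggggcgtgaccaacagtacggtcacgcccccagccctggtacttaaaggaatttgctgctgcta
Epcam (chr17:87635729-87635978, plus strand): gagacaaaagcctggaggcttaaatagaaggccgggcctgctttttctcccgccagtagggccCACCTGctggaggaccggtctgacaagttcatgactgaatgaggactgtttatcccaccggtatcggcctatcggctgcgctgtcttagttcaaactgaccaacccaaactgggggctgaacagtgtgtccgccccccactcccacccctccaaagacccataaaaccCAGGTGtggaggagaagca
F11r (chr1:171437311-171437560, plus strand): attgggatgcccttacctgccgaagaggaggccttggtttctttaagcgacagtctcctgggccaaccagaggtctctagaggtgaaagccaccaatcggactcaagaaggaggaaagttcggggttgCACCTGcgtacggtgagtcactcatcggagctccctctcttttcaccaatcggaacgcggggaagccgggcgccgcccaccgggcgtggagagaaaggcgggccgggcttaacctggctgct
Snai1 held 1 E-box, which began 126 bases before the start site. Epcam held 2, and F11r held 1, and both genes rose in Sox4, as described with the junction genes. No window was matched for Cdh1, which fell, and that of Cldn2, which also fell, held no E-box. Cldn1, Tjp1 and Jup rose and held none, whereas Cldn3, Crb3 and Ocln did not pass the threshold and held E-boxes. Whether E-boxes go with the changes of junction genes was not tested. No E-box was found in the windows of Zeb2 and Twist1. The SOX letters AACAAAG and AACAATG, found on either strand in 5.85% and 3.78% of all windows, were not in the windows of these 3 members. The shorter SOX letters ACAAAG (reverse complement CTTTGT), which the longer AACAAAG contains and which were searched after the data were seen, were in 18.7% of all windows. They were found once in the Snai1 window, 69 bases before the start site, and once in 1 of 4 Zeb2 windows, 62 bases before it, and not in that of Twist1.

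**Figure D1:**
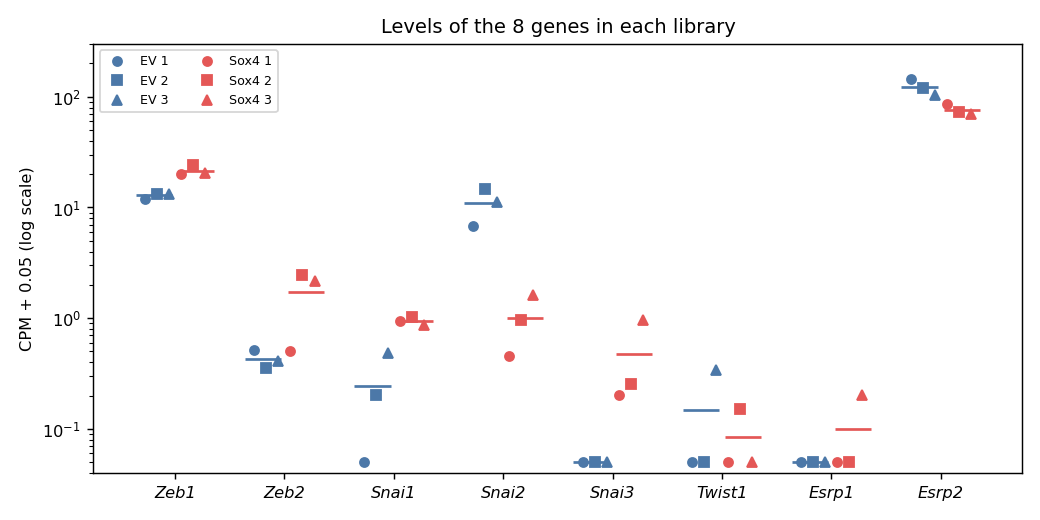
Level of each gene in each library (CPM plus 0.05, log axis), with EV in blue, Sox4 in red and horizontal lines at the group means. Zeb1 and Snai1 sat higher and Snai2 and Esrp2 lower in every Sox4 library than in every EV library, and a point at 0.05 is a library with no count.

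Zeb1, a zinc finger homeobox repressor of E-cadherin, had a level of 11.9, 13.2 and 13.3 CPM in the EV libraries and 19.9, 23.9 and 20.6 CPM in the Sox4 libraries. Every Sox4 library was above every EV library. The mean rose from 12.8 ± 0.756 to 21.5 ± 2.14 CPM, which gave a log2 fold change of 0.74 with SE 0.09 (adjusted p = 0.00137). Zeb1 kept this direction and stayed past the threshold with library size alone, where the log2 fold change was 1.21. Gm10125, an antisense gene whose exons overlap Zeb1 in GENCODE M21, had at most 3 counts in any library.

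Zeb2, the other member of the Zeb family, had 6, 4 and 5 counts in the EV libraries and 9, 47 and 42 in the Sox4 libraries and did not pass the expression filter. In CPM these were 0.462, 0.304 and 0.363 against 0.451, 2.40 and 2.13. Sox4 replicate 1 lay within the EV range, whereas the other Sox4 libraries were higher, and the groups overlapped. The means were 0.376 ± 0.0801 and 1.66 ± 1.06 CPM, with p = 0.2 in a two-sided exact permutation test, whose smallest possible value with 3 against 3 is 0.1. In an edgeR fit over the 15705 genes with a total count of at least 15, a filter chosen after the data were seen in which 47.2% of genes passed, Zeb2 had a log2 fold change of 2.13 (adjusted p = 0.0178). In that fit the adjusted p of Zeb2 was 0.0621 without EV replicate 2, 0.0504 without EV replicate 3, 0.0829 without Sox4 replicate 2 and 0.0532 without Sox4 replicate 3.

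Levels of markers of other liver cells are given beside Zeb2 for the same libraries. Over all tested genes 29.0% were higher and 26.0% lower past the threshold. The summed level of 12 Kupffer cell markers ranged over 15.2 to 33.4 CPM for EV and 36.6 to 79.7 CPM for Sox4, and 6 of 11 tested markers rose (54.5%). Of 12 endothelial markers, which summed to between 30.5 and 51.9 CPM (EV) and between 31.9 and 71.8 CPM (Sox4), 3 rose (25%) and 1 fell (8.33%). Summed stellate cell markers lay between 11.1 and 52.2 CPM for EV and between 104 and 155 CPM for Sox4, and 4 of 7 tested rose (57.1%). Most of the stellate sum came from Reln, and without it the groups overlapped, with 4.01, 7.14 and 14.7 CPM for EV and 13.3, 37.8 and 52.9 CPM for Sox4. Summed leukocyte markers lay between 1.54 and 3.80 CPM for EV and between 5.01 and 12.9 CPM for Sox4. Among 3 tested, 2 rose (66.7%), while the B cell marker Ms4a1 was at 0 in every library. Of the markers that rose, Cd68, Marco, Rgs5, Col3a1, Coro1a and Laptm5 would not have passed the expression filter on EV counts alone. The shares of the Kupffer, stellate and leukocyte lists are therefore no support for a change of these lists. Sox4 replicate 1 was the lowest Sox4 library for Zeb2 and for the summed Kupffer, endothelial and leukocyte markers. In that library Zeb2 lay within the EV range, whereas the Kupffer (36.6 CPM) and leukocyte (5.01 CPM) sums were above every EV library. The stellate sum was lowest in Sox4 replicate 3 with Reln and in Sox4 replicate 1 without it. The part of these cells in the levels of Zeb2 and the other 7 genes was not tested, and in bulk RNA fewer cells of a type and less RNA per cell cannot be told apart.

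**Figure D2:**
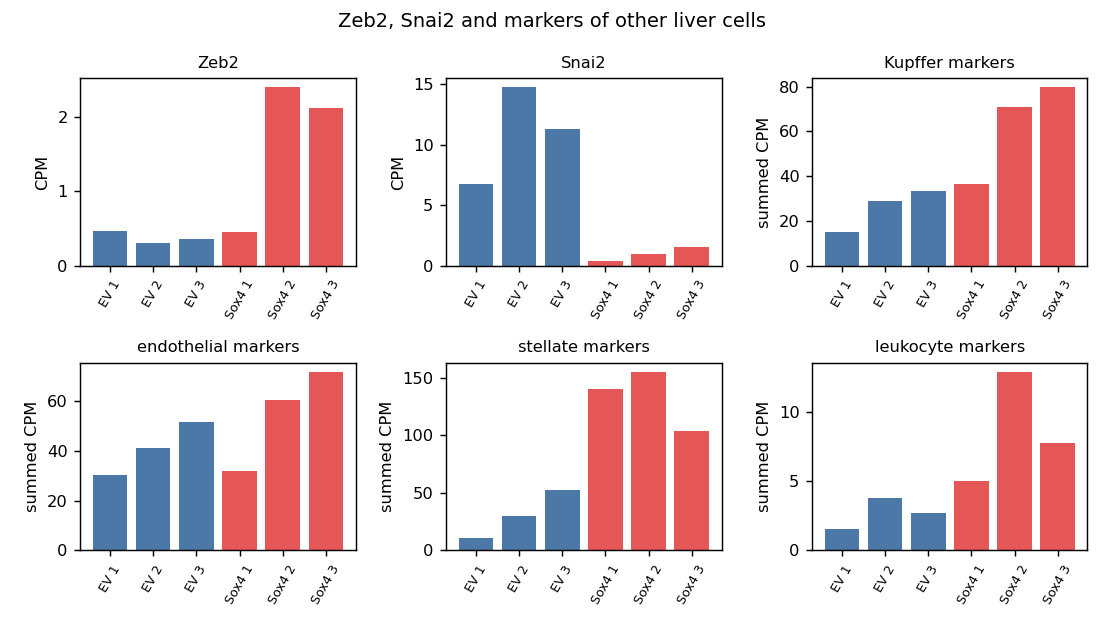
Level of Zeb2 and Snai2 (CPM) and summed level of 4 marker lists (CPM) in each library, with EV in blue and Sox4 in red. Zeb2 and the Kupffer, endothelial and leukocyte sums were lower in Sox4 replicate 1 than in the other Sox4 libraries, and Snai2 was lower in every Sox4 library than in every EV library.

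Snai1, a zinc finger repressor induced early in EMT, had 0, 2 and 6 counts in the EV libraries and 18, 19 and 16 in the Sox4 libraries. The Sox4 libraries were close to each other and all above EV. The mean rose from 0.196 ± 0.221 to 0.895 ± 0.0801 CPM, which gave a log2 fold change of 2.12 with SE 0.64 (adjusted p = 0.0287). Snai1 passed the expression filter only through the Sox4 group, and its adjusted p was 0.0548 without EV replicate 1, 0.0859 without EV replicate 2 and 0.0752 without Sox4 replicate 2.

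Snai2, also called Slug and known for its part in neural crest and wound repair, had 88, 194 and 155 counts in the EV libraries and 8, 18 and 31 in the Sox4 libraries. In CPM these were 6.78, 14.7 and 11.3 against 0.401, 0.919 and 1.57, so that the lowest EV library was above the highest Sox4 library. The mean fell from 10.9 ± 3.99 to 0.964 ± 0.586 CPM, which gave a log2 fold change of -3.49 with SE 0.59 (adjusted p = 2.03e-04). Snai2 passed the expression filter only through the EV group. The fold change ranged from -4.04 to -3.12 when 1 library was left out, and Snai2 stayed past the threshold each time. The summed Kupffer and leukocyte markers were higher in each Sox4 library than in each EV library, whereas the endothelial sums, and the stellate sums without Reln, overlapped. Which cells the Snai2 reads came from was not tested.

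Snai3, the third member of the family, had no count in any EV library and 3, 4 and 18 counts in the Sox4 libraries. Sox4 replicate 3 held most of these. The mean Sox4 level of 0.422 ± 0.425 CPM was 1.87-fold the floor of 3 counts per EV library. Only Sox4 replicate 3 (0.912 CPM) lay above that floor, and Sox4 replicates 1 and 2 (0.150 and 0.204 CPM) lay below it. The exact two-sided permutation test gave p = 0.1, the smallest value it can give. In the fit over 15705 genes, which Snai3 entered only through its Sox4 counts, its adjusted p was 0.0197, and it was 0.0736 without Sox4 replicate 3.

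The make-up of the Snai family differed between the groups when levels were compared per length, as CPM per kb of exons. Snai2 gave 100%, 98.7% and 95.4% of the summed Snai level in the EV libraries and 23.4%, 38.6% and 42.3% in the Sox4 libraries. No Sox4 library reached the share of any EV library. The summed level of the family fell from 5.53 ± 2.03 to 1.29 ± 0.504 CPM per kb. Snai1 was the largest part in Sox4 replicates 1 and 2, and Snai2 in Sox4 replicate 3. The Sox4 shares rest on few counts, such as 19 for Snai1 and 18 for Snai2 in Sox4 replicate 2, so this ranking is uncertain.

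**Figure D3:**
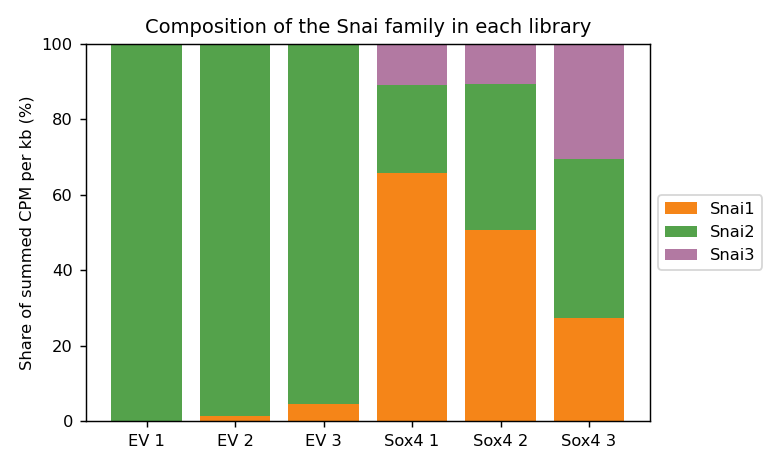
Share of Snai1, Snai2 and Snai3 in the summed Snai level (%, from CPM per kb of exons) in each library. Snai2 made up 95.4% or more of the sum in the EV libraries and 42.3% or less in the Sox4 libraries.

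Twist1 had 0, 0 and 4 counts in the EV libraries and 0, 2 and 0 in the Sox4 libraries, and no difference was detectable at this depth. Esrp1, the paralog of Esrp2, had no count in EV and 0, 0 and 3 in Sox4. Both groups were at or under the floor of 3 counts for Esrp1, so no fold is given. The floor was 0.231 CPM or less in each library and covers counting error only.

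Esrp2, the epithelial splicing regulator of hepatocytes, was the highest of the 8 genes per length in both groups. Its level was 145, 120 and 103 CPM in the EV libraries and 86.2, 72.9 and 70.5 CPM in the Sox4 libraries, and the groups did not overlap. The mean fell from 123 ± 20.9 to 76.5 ± 8.47 CPM, which gave a log2 fold change of -0.68 with SE 0.17 (adjusted p = 0.00297). This call depended on the scaling. The raw counts of Esrp2 overlapped between the groups (1878, 1586 and 1420 in EV against 1720, 1427 and 1391 in Sox4), and with library size alone the log2 fold change was -0.21 (adjusted p = 0.231). Esrp2 shares exon sequence on the opposite strand with Nfatc3 and 1810019D21Rik in GENCODE M21, and the strand setting of the counting is not given in the sources used here, so reads of these genes may not be told apart. 1810019D21Rik had 438, 216 and 256 counts in EV and 230, 154 and 139 in Sox4 (log2 fold change -1.38, adjusted p = 0.00427), and Nfatc3 had 575 to 677 in EV and 952 to 1060 in Sox4 (0.14, adjusted p = 0.295).

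Per length, the order in EV was Esrp2 (28.3 CPM per kb), Snai2 (5.40), Zeb1 (1.25), Snai1 (0.121), Twist1 (0.0595) and Zeb2 (0.0189), with Snai3 and Esrp1 at 0. Esrp2, Snai2 and Zeb1 were each above the next gene in every EV library, whereas Snai1, Twist1 and Zeb2 overlapped. In Sox4 the order was Esrp2 (17.6 CPM per kb), Zeb1 (2.09), Snai1 (0.552), Snai2 (0.477), Snai3 (0.259), Zeb2 (0.0832), Twist1 (0.0209) and Esrp1 (0.00804). Esrp2, Zeb1, Snai2, Snai3 and Zeb2 were each above the next gene in every Sox4 library, whereas Snai1 and Twist1 were not. By range over the libraries, only Esrp2 and Zeb1 were apart from the next gene in Sox4. The ranges of each later pair of neighbours, from Snai1 and Snai2 to Twist1 and Esrp1, overlapped.

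The genes whose profile over the 6 libraries was nearest to a tested member were found among 10219 or more genes whose mean count reached 50, by the root mean square (RMS) distance of log2 CPM centred on EV. For Zeb1 these were Eps15l1 (RMS 0.04), Med13 (0.05) and Kansl2 (0.05). For Snai1 they were Ica1 (RMS 0.22), Zfp704 (0.34) and Cd5l (0.38), of which Cd5l is a Kupffer marker. For Snai2 they were Cxcl9 (RMS 0.41), Gm8883 (0.41) and Slc10a1 (0.43), and Slc10a1 encodes the bile acid transporter of hepatocytes. For Esrp2 they were Ndufa8 (RMS 0.04), Nudt2 (0.04) and BC004004 (0.05).

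Of 9 other EMT factors, 2 were tested and both rose. Tcf3, which encodes the E2A basic helix-loop-helix proteins, rose from 17.4 ± 3.41 to 61.3 ± 11.5 CPM (log2 fold change 1.82, adjusted p = 3.13e-05). Tcf4, which encodes the related E2-2 protein, rose from 10.8 ± 0.581 to 24.6 ± 1.24 CPM (1.19, adjusted p = 5.34e-05). The other 7, including Twist2, Prrx1 and Foxc2, had 3 counts or fewer in each library. Of 8 epithelial transcription factors, Grhl1 (log2 fold change 1.42, adjusted p = 0.0188) and Elf3 (1.18, adjusted p = 0.0403) were tested and rose, and neither passed without EV replicate 1. Grhl1 also lost its call without Sox4 replicate 3 (adjusted p = 0.0807), and Elf3 lost it when EV replicate 3 was left out (adjusted p = 0.127) and likewise for Sox4 replicates 1 and 2 (0.0884 and 0.134). Elf3 would not have passed the expression filter on its EV counts alone.

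Of 20 mesenchymal genes, 11 were tested, of which 8 rose, none fell and 3 did not pass (72.7% past the threshold, against 55.1% of all tested genes), and the median log2 fold change was 1.93. Mmp14, a membrane-bound matrix metalloproteinase, rose from 38.1 ± 5.01 to 268 ± 27.9 CPM (log2 fold change 2.82, adjusted p = 8.16e-07). Sparc and the intermediate filament gene Vim rose by 2.82 and 2.46 on the log2 scale, from 2.37 and 0.747 CPM in EV. The list rested on 5 genes past the threshold without EV replicate 2, and the collagen genes Col1a1 and Col3a1 are also on the stellate list, whose level differed between the groups. Among the genes that rose, Vim and the collagens Col1a2 and Col3a1 would not have passed the expression filter on EV counts alone. The share of mesenchymal genes past the threshold is therefore no support for a change of the list. Cdh2, the N-cadherin that hepatocytes also express, rose from 119 ± 14.1 to 195 ± 4.02 CPM, whereas the fibronectin gene Fn1 had a log2 fold change of 0.10 (adjusted p = 0.568).

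Of 23 epithelial junction genes, 21 were tested, of which 12 rose, 3 fell and 6 did not pass, with a median log2 fold change of 0.45. The share past the threshold was 71.4%, against 55.1% of all tested genes (29.0% higher and 26.0% lower). Cdh1, which encodes E-cadherin, fell from 111 ± 8.69 to 63.1 ± 8.15 CPM (log2 fold change -0.82, adjusted p = 4.22e-04), and the claudin gene Cldn2 fell from 129 ± 5.59 to 52.0 ± 15.3 CPM (-1.31, adjusted p = 5.70e-04). Both stayed lower and past the threshold with library size alone, at -0.35 and -0.84, while the desmosome gene Pkp2 went from -0.46 to 0.01 and lost its call. Pkp2 also lost it when any of EV replicates 1 and 2 and Sox4 replicates 1 and 2 was left out, with adjusted p from 0.0828 to 0.170. St14, a membrane serine protease, rose from 0.223 ± 0.121 to 18.8 ± 0.784 CPM (6.34, adjusted p = 3.23e-07). Epcam, an adhesion molecule of biliary cells, rose from 0.147 ± 0.191 to 2.60 ± 0.542 CPM (4.05, adjusted p = 6.38e-04), and its log2 fold change was 5.83 without EV replicate 3. Cldn4 had no count in EV and 13, 38 and 17 in Sox4, and its mean Sox4 level was 5.10-fold the floor of 3 counts per EV library. F11r, the junctional adhesion molecule JAM-A, rose from 87.3 ± 5.95 to 190 ± 12.4 CPM (1.12, adjusted p = 3.46e-05). Marveld3, a tight junction protein, rose from 1.10 ± 0.546 to 10.3 ± 1.61 CPM (3.22, adjusted p = 3.84e-05). St14, Epcam, Cldn4 and Marveld3 would not have passed the expression filter on EV counts alone. The share of junction genes past the threshold is therefore no support for a change of the list.

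All 14 transcripts on the list of ESRP splicing targets were tested at the gene level, of which 5 rose, none fell and 9 did not pass, with a median log2 fold change of 0.25. The share past the threshold was 35.7%, against 55.1% of all tested genes, of which 29.0% were higher. Enah and Cd44, which are among the 5, would not have passed the expression filter on EV counts alone. Enah, an actin regulator, rose from 0.148 ± 0.124 to 8.05 ± 1.33 CPM (log2 fold change 5.68, or 6.58 without EV replicate 3, adjusted p = 5.63e-06), and the Hippo pathway factor Tead1 rose from 11.5 ± 0.436 to 56.9 ± 15.1 CPM (2.30, adjusted p = 1.06e-05). Cd44 had 0, 6 and 10 counts in EV and 19, 35 and 41 in Sox4 (1.99, adjusted p = 0.0375). The adjusted p of Cd44 was 0.0534 without EV replicate 1, 0.0850 without EV replicate 2, 0.0935 without Sox4 replicate 2 and 0.0944 without Sox4 replicate 3, and its log2 fold change ranged from 1.43 to 2.77, the latter without EV replicate 3. Ralgps2, which encodes a Ral exchange factor, rose from 16.1 ± 2.25 to 35.1 ± 8.83 CPM (1.12, adjusted p = 0.00106). Ctnnd1, which encodes p120 catenin, rose from 21.4 ± 0.763 to 42.9 ± 3.33 CPM (adjusted p = 6.68e-05), and Fgfr2, the best known ESRP target, had a log2 fold change of -0.18 (adjusted p = 0.552). With library size alone 13 of the 14 passed, all higher. Gene counts do not separate splice forms, so the use of ESRP-dependent exons was not measured here.

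Of 29 other splicing regulators, 23 were tested, of which 16 rose, 1 fell and 6 did not pass, with a median log2 fold change of 0.69. The share past the threshold was 73.9%, against 55.1% of all tested genes (29.0% higher and 26.0% lower). Srrm4, known as a regulator of neuronal microexons, rose from 10.3 ± 2.92 to 40.2 ± 13.0 CPM (log2 fold change 1.97, adjusted p = 3.80e-04), and Ptbp2, the neuronal paralog of Ptbp1, rose from 8.99 ± 0.644 to 35.1 ± 6.65 CPM (1.97, adjusted p = 1.29e-05). Hnrnpa1 and Rbfox2 rose by 1.81 and 1.62 on the log2 scale. Khdrbs3 fell by 0.51 on the log2 scale (adjusted p = 0.0393), a call that was lost with library size alone, where it was -0.04, and without any 1 of EV replicates 1, 2 and 3 and Sox4 replicate 2 (adjusted p from 0.0520 to 0.144). Rbm47, which is known to act with Esrp proteins on epithelial exons, had a log2 fold change of -0.05 (adjusted p = 0.787).

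**Figure D4:**
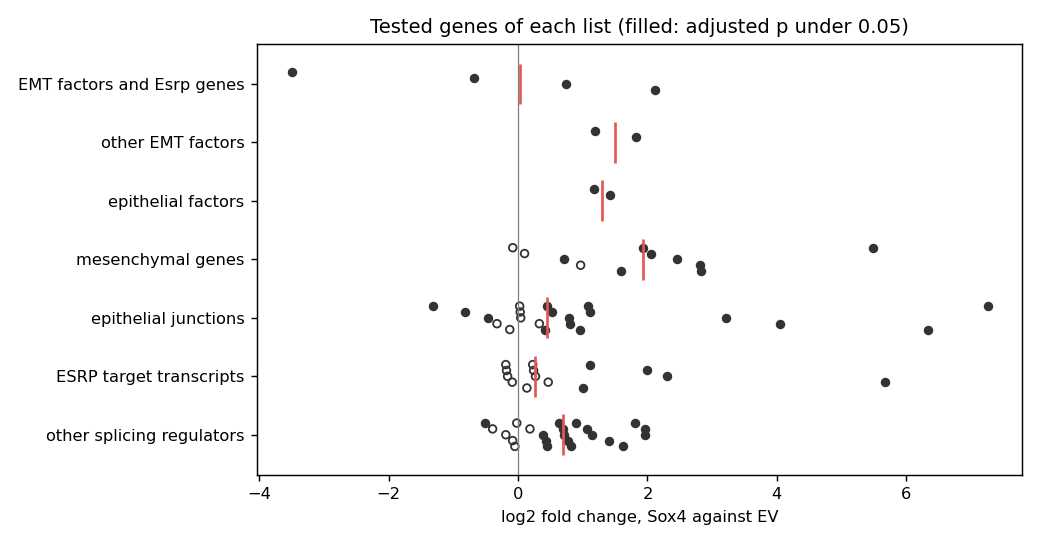
Log2 fold change, Sox4 against EV, of each tested gene in 7 lists, with red lines at the list medians and filled points for genes past the threshold. The 4 tested members lie on both sides of 0, from -3.49 for Snai2 to 2.12 for Snai1. The point of Cldn4 at the right rests on EV libraries with no count and is no bound.

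**Figure D5:**
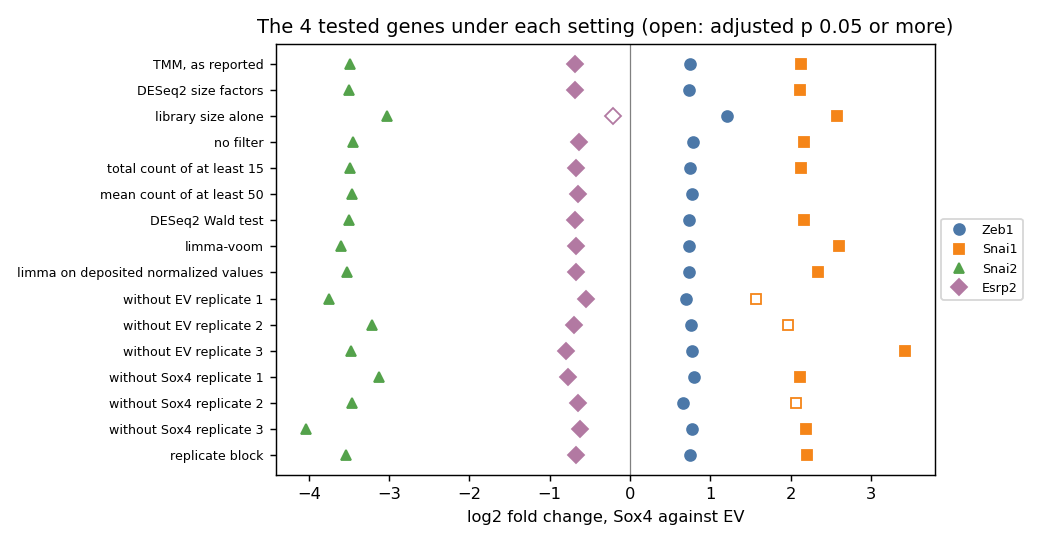
Log2 fold change, Sox4 against EV, of Zeb1, Snai1, Snai2 and Esrp2 under each way of processing (rows), with open points where the adjusted p was 0.05 or more. No value changed sign. The points of the fit with no filter are filled from p-values that ignore the spread of single genes.

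Hepatocyte markers were high in every library, with a sum between 121035 and 145705 CPM for EV and between 83350 and 95500 CPM for Sox4. Most of this sum came from Alb. Among 11 tested, 8 fell (72.7%, against 26.0% of all tested genes). The raw counts of Alb, Hnf4a and Serpina1a overlapped between the groups, as for Esrp2. Those of Apoa1, Ass1, Fah, Asgr1 and Tat were lower in every Sox4 library than in every EV library. Of 7 tested cholangiocyte markers 3 rose and none fell (42.9%, against 29.0% of all tested genes higher and 55.1% past the threshold in either direction). Of these, Epcam and Cldn4 would not have passed the expression filter on EV counts alone. This share is therefore no support for a change of the list. Krt7 and Krt19 had no count in EV and 9 or fewer in each Sox4 library.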

How the data were processed

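RNA-seq of 6 mouse hepatocyte libraries was analysed, 3 per group by the sample titles. Per the submitters' processing notes, reads were aligned to GRCm39 with STAR 2.7.10b and counted with featureCounts 2.0.1, and the authors deposited raw counts per gene. The annotation release, strand setting and handling of multimapping reads are not given in the sources used here. The authors also deposited a normalized signal, the counts divided by a DESeq2 size factor per library, which was used only as an alternative. The depth was 15090629 to 16964860 counts per library.

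The tests were run with edgeR 4.0.16 in R 4.3.3 (filterByExpr, minimum count 10, minimum total 15; TMM; robust quasi-likelihood F test with no covariate), and p-values were adjusted over all 12691 tested genes by Benjamini-Hochberg with a threshold of 0.05. The SE was computed from log2 CPM (prior count 2) of the libraries in both groups. A group with every library at 3 counts or fewer was at the floor, and a fold against it is a bound. Genes under the filter were compared by two-sided exact permutation. Alternatives were DESeq2 1.42.0 size factors and its Wald test, library size alone, limma 3.58.1 (voom, and log2 of the deposited normalized values with a pseudocount of 1), no filter, a mean count of at least 50, each library left out and the replicate number as a block. The scripts were tested on simulated data.

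With no filter (24036 genes) the prior degrees of freedom of edgeR were infinite at the median gene, against 5.69 with the filter, so that the spread of single genes did not enter the test. Its p-values are too small and are not printed. A total count of at least 15, added after the data were seen, was used in its place for Zeb2 and Snai3 (median prior degrees of freedom 7.48).

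Named genes were the 8 members, Sox4, in each list of EMT, epithelial, mesenchymal, junction and splicing genes those past the threshold with the largest change (at most 4 per direction) and those whose role a sentence needs, and the 3 nearest profiles of each tested member. Marker lists are described mainly by sums and counts, although the rule covers them too. Members and lists were chosen with earlier results of these data known. Lengths and overlaps are from GENCODE M21 on GRCm38, another build than that of the counts, so gene coordinates are not given. RefSeq promoters were matched for fewer than 80% of the junction genes (16 of 23), so a share of that list with an E-box is void. Of the listed hepatocyte markers, 1 was not used here. A mesenchymal gene that this rule names is counted in its list but is not reported here.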

Additional observations from a re-analysis of the deposited data

How the results depend on the processing

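Of 59 refitted fold changes of Zeb1, Snai1, Snai2 and Esrp2, 55 stayed on the same side of the threshold, 4 lost it and 0 reversed. Both the 59 and the 55 include the fit with no filter, whose calls carry no weight here. They also include the total-count filter that was added after the data were seen. Esrp2 lost it with library size alone (-0.21), and Snai1 lost it when EV replicate 1, EV replicate 2 or Sox4 replicate 2 was left out, with a range over left-out libraries of 1.57 to 3.42. With library size alone, 79.9% of the genes past the threshold were higher against 52.7% with TMM, 13 ESRP targets passed against 5, and 2 of the 3 members that passed were higher (66.7%). With a mean count of at least 50, 0 epithelial transcription factors and 5 mesenchymal genes passed, since fewer genes were tested, and limma-voom called 1 epithelial transcription factor. When 1 library was left out, epithelial transcription factors past the threshold numbered 0 to 2, mesenchymal genes 5 to 8, members 3 to 4 and all genes 5944 to 7105. The fit with no filter gave p-values that are too small, as its prior degrees of freedom were infinite, and says nothing about stability. Same-numbered EV and Sox4 libraries had correlations of deviations of 0.27, -0.09 and 0.13. With 3 libraries per group, these values cannot decide whether same-numbered libraries were paired. The replicate block moved the count of genes past the threshold from 6990 to 7362 and changed no member call. It gave 0.74 for Zeb1, 2.21 for Snai1, -3.54 for Snai2 and -0.67 for Esrp2. The cause of these changes was otherwise not tested. Depth limits Zeb2, Snai1, Snai3, Twist1 and Esrp1.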
